A study of Mus musculus with 12 samples.

Results

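The suppressor of cytokine signalling (SOCS) genes were followed through 12 RNA-seq libraries of mouse bone-marrow-derived macrophages. Members were taken by symbol, as Socs1 to Socs7 and Cish, and all 8 were among the 15555 genes of the count table, of which 7 carried enough reads to be tested and 1, Socs2, did not. The libraries came from 4 genotypes with 3 libraries each, namely wild type (WT), the single knockouts Cbl-/- and Cbl-b-/-, and mice lacking both genes (DKO, double knockout). The 2 proteins are kindred E3 ligases, known for tagging active tyrosine kinases with ubiquitin. All groups were grown alike, in medium with serum and the supernatant of L cells, which supplies the macrophage growth factor CSF-1, on uncoated plates until day 9, and the labels name no stimulus beside it. RNA came from the cells that adhered. Strain, age and the alleles behind each knockout are not stated in the sources used here.

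SOCS proteins are feedback inhibitors of signalling through JAK kinases and STAT transcription factors. Cytokine receptors activate JAK kinases, these phosphorylate STAT proteins, and STAT proteins switch on several SOCS genes, whose products then bind the receptor or the kinase through an SH2 domain. A second domain, the SOCS box, recruits a ubiquitin ligase built on elongin B, elongin C and cullin 5, so that the bound protein can be marked for degradation. In macrophages Socs1 is known as a brake on interferon signalling and Socs3 as a brake on receptors that use gp130, the shared signalling chain of the interleukin 6 family. Cish and Socs2 are best known downstream of STAT5, while Socs4 to Socs7 have been tied mostly to receptor tyrosine kinases and to insulin signalling.

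Total counts ran from 21048103 to 43946503 per library. Cbl itself fell by 1.44 on the log2 scale in Cbl-/- and by 1.90 in the libraries labelled DKO. Cblb was not called lower than WT in either group labelled as lacking it. Its log2 fold change against WT was -0.17 in the libraries labelled Cbl-b-/- (unadjusted p = 0.016, adjusted p = 0.46, edgeR). In those labelled DKO it was 0.27 (adjusted p = 0.0027), and in Cbl-/- 0.20 (adjusted p = 0.048). Against Cbl-/-, the libraries labelled Cbl-b-/- were lower in Cblb (-0.37, adjusted p = 0.0011, edgeR). Those labelled DKO did not pass against Cbl-/- (0.067, adjusted p = 0.46). An allele that spares the transcript would go unseen in counts per gene, so every direction given for the Cbl-b-/- and DKO groups rests on the labels. The library labelled DKO 3 stood apart from its partners, with a chi-square per degree of freedom of 44.7 and 55.3 against 3.93 to 12.3 for all other pairs of 1 genotype. Levels are given as CPM, counts scaled to library depth. All 12 macrophage markers were present, at a summed 21087 to 23300 CPM in WT and 18378 to 19350 in Cbl-/-. In the libraries labelled Cbl-b-/- they summed to 21529 to 23861 CPM, and in those labelled DKO to 17716 to 20888. Summed neutrophil markers, 7 of 12 in the table and without Ly6g, Elane, Mpo, Retnlg and Camp, reached 31.5 to 38.4 CPM in WT, 48.2 to 49.9 in Cbl-/-, 43.0 to 53.2 in the libraries labelled Cbl-b-/- and 84.6 to 112 in those labelled DKO. The sum of the 9 monocyte and progenitor markers moved the same way, from 129 to 146 CPM in WT to 170 to 183, 156 to 176 and 233 to 286 in the same order. Summed stromal and endothelial markers, 6 of 8 in the table, were at 3.49 to 5.68 CPM in WT, 4.91 to 8.42 in Cbl-/-, 2.19 to 3.08 in the libraries labelled Cbl-b-/- and 12.97 to 16.6 in those labelled DKO. Of the 12 macrophage markers 2 rose and 7 fell in the libraries labelled DKO (median log2 fold change -0.37). There 5 of 6 tested neutrophil markers rose and 1 fell, and 7 of 9 monocyte and progenitor markers rose and 1 fell. Of 5 tested stromal and endothelial markers 4 rose and 0 fell. Of all genes 19.1% were called higher and 16.3% lower in that comparison. In Cbl-/- 1 of the 12 macrophage markers rose and 3 fell. Of 6 tested neutrophil markers 3 rose and 0 fell there, and of 9 monocyte and progenitor markers 2 rose and 0 fell. Stromal and endothelial markers had 0 calls in Cbl-/-, where 5.68% of all genes were called higher and 4.19% lower. The part of such cells in the results was not tested, and in bulk RNA fewer cells of a type and less RNA per cell cannot be told apart.

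Socs3 was the member that differed most clearly between genotypes. It was 3.34-fold higher in Cbl-/- than in WT, 1.79-fold higher in the libraries labelled Cbl-b-/- and 3.77-fold higher in those labelled DKO. Socs1 rose 2.502-fold in the libraries labelled DKO, and Cish, at very few reads, rose in Cbl-/- and in the libraries labelled DKO. Socs4, Socs6 and Socs7 passed the test in none of the 6 pairs of genotypes, and Socs5 was 0.872-fold as high in the libraries labelled DKO as in WT.

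**Figure D1:**
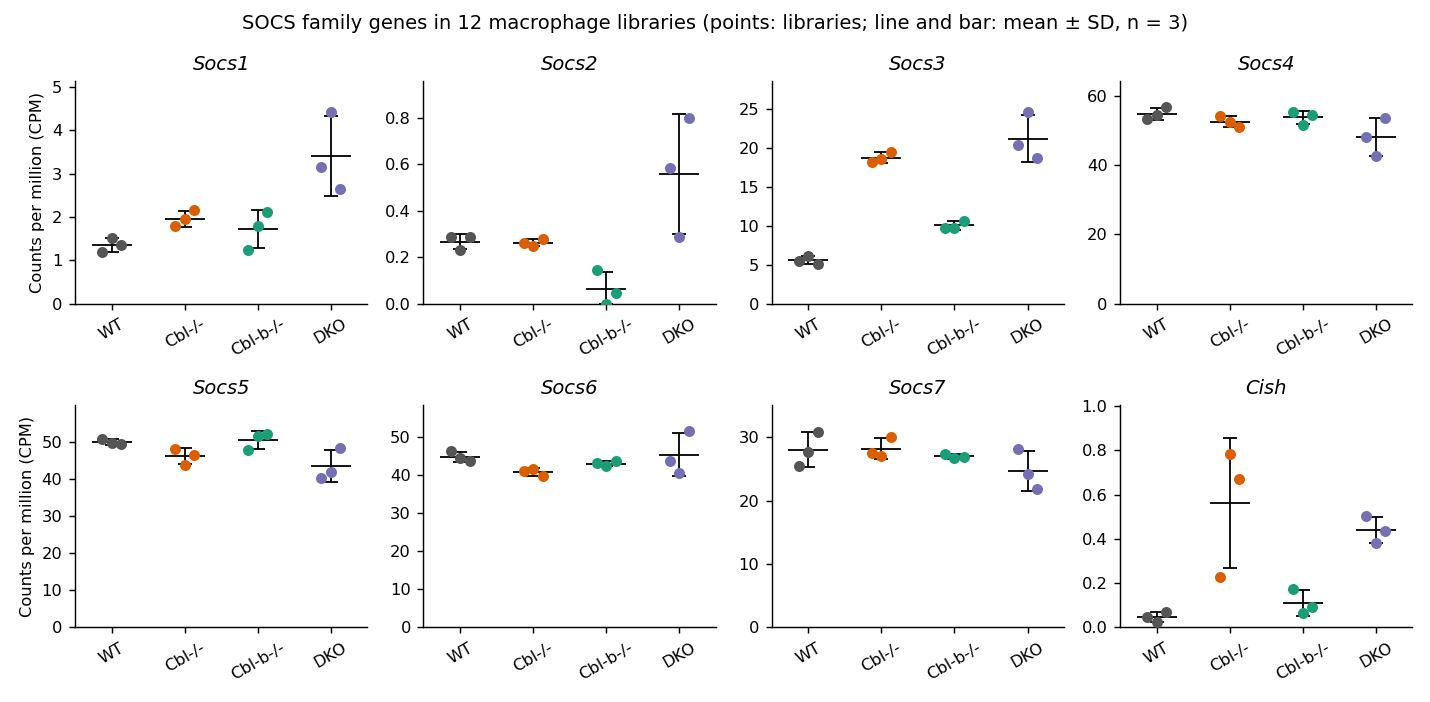
CPM of the 8 SOCS family genes in each library, with 1 panel per gene and its own axis from 0. Points are libraries, and the line and bar give the mean ± SD of the 3 libraries of a genotype. The 3 WT libraries lie below every other library for Socs3, while Socs4 to Socs7 stay within a narrow range in all genotypes.

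Socs3 (ENSMUSG00000053113) lies on chromosome 11 at 117966079 to 117970047 on the minus strand (GRCm38). Its protein blocks JAK kinases at receptors that carry gp130 and at the receptor for the growth factor G-CSF. The stretch upstream of its RefSeq start is shown because Socs3 is the member with the clearest response and because the stretch holds the STAT motif, spelled TTCNNNGAA and palindromic, here in capitals. It covers chr11:117969452-117969616 on the minus strand, positions -250 to -86 from that start (RefSeq, GRCm38.p6). A longer GENCODE transcript starts further upstream, so the stretch lies inside the gene as placed above and in an intron of that transcript.

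Socs3: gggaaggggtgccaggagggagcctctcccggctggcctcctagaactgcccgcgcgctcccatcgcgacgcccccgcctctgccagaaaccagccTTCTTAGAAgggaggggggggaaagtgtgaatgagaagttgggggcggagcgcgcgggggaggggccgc

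The match, TTCTTAGAA, stood at -154 to -146. The motif was found in 2726 of 32851 mouse promoter windows of 300 bases, or 8.30%. A match of letters is a description and not a site of binding. RefSeq promoter windows were matched for 4 of the 8 members (Socs1, Socs3, Socs4 and Cish), and the window of Socs4 held neither this motif nor the interferon-type motif described with Socs1.

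In the 3 WT libraries Socs3 stood at 5.52, 6.13 and 5.07 CPM. In Cbl-/- it reached 18.1, 18.5 and 19.5 CPM. Every Cbl-/- library was thus higher than every WT library, and the spread within Cbl-/- was small (18.7 ± 0.69 CPM, SD, n = 3). The libraries labelled Cbl-b-/- had 9.70, 9.71 and 10.7 CPM. They lay between WT and Cbl-/- without touching either. The libraries labelled DKO had 20.3, 24.5 and 18.7 CPM, a range that overlapped with that of Cbl-/-.

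The log2 fold change of Socs3 against WT was 1.74 in Cbl-/- (SE 0.11, adjusted p = 1.4e-08, edgeR quasi-likelihood test with Benjamini-Hochberg adjustment over 12671 genes). It was 0.84 in the libraries labelled Cbl-b-/- (SE 0.11, adjusted p = 0.0013) and 1.92 in those labelled DKO (SE 0.11, adjusted p = 1.6e-09). The 2 single knockouts differed from each other, with a value of -0.91 for Cbl-b-/- against Cbl-/- (SE 0.11, adjusted p = 3.4e-05). Between the libraries labelled DKO and Cbl-/- the difference was 0.17 (95% interval -0.04 to 0.39, adjusted p = 0.22), so a further rise beyond Cbl-/- was not shown. With each library left out in turn that difference ran from 0.058 without DKO 2 (adjusted p = 0.70) to 0.26 without DKO 3, the 1 of 12 fits in which it passed (adjusted p = 0.048). If the 2 single changes added on the log2 scale, the double knockout would stand higher than it did, and the departure from that sum was -0.66 (SE 0.15, adjusted p = 0.0067). The departure passed with every library left out in turn, between -0.78 and -0.58, and without DKO 3 it was -0.58.

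Socs1 (ENSMUSG00000038037) lies on chromosome 16 at 10782240 to 10785536 on the minus strand. Its protein inhibits JAK kinases directly through a short inhibitory region and is known for restraining interferon gamma signalling. The 250 bases upstream of its annotated start, chr16:10785537-10785786 on the minus strand (RefSeq, GRCm38.p6), are shown because they hold an interferon-type motif that interferon regulatory factors are known to bind, 2 runs of GAAA with any 2 bases between them.

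Socs1: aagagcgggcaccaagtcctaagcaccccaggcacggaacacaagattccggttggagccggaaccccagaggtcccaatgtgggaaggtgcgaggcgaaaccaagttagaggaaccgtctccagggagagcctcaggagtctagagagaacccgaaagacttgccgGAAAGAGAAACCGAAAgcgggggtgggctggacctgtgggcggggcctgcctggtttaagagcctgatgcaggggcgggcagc

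The capitals are 2 overlapping matches, at -83 to -74 and at -77 to -68. Searched on both strands, the motif occurred in 3.44% of all promoter windows and occurred at least 2 times in 0.225%. TTCNNNGAA was not among the letters of the Socs1 window.

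Socs1 was low in WT, at 1.19, 1.51 and 1.36 CPM. Cbl-/- had 1.79, 1.94 and 2.16 CPM, each above every WT library. The libraries labelled Cbl-b-/- had 1.25, 1.80 and 2.11 CPM and overlapped with WT. Those labelled DKO had 3.15, 4.42 and 2.64 CPM and stood above all 9 others. Against WT, Socs1 rose in the libraries labelled DKO by 1.32 on the log2 scale (SE 0.24, adjusted p = 0.00046). In Cbl-/- the value was 0.54 and did not pass (unadjusted p = 0.048, adjusted p = 0.22), and in the libraries labelled Cbl-b-/- it was 0.33 (adjusted p = 0.88). The libraries labelled DKO were also higher than those labelled Cbl-b-/-, by 1.00 (SE 0.24, adjusted p = 0.0046), and than Cbl-/-, by 0.78 (SE 0.24, adjusted p = 0.020). That last call was lost without Cbl-/- 1 (0.72, adjusted p = 0.078), Cbl-/- 2 (0.78, adjusted p = 0.058) or DKO 2 (0.56, adjusted p = 0.11). The departure of Socs1 from the sum of the single changes was 0.46 (SE 0.35, adjusted p = 0.43).

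Cish (ENSMUSG00000032578) lies on chromosome 9 at 107296026 to 107302784 on the plus strand. Its protein binds phosphorylated receptor tails and so competes with STAT5, and Cish is a textbook target of STAT5 in lymphoid and erythroid cells. The 30 bases around its RefSeq start, which lies inside the gene as placed above, chr9:107296654-107296683 on the plus strand (RefSeq, GRCm38.p6), are shown because they hold the STAT motif at 2 places, in capitals.

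Cish: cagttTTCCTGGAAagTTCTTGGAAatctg

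The matches TTCCTGGAA and TTCTTGGAA stood at 1 to 9 and at 12 to 20, counted from the start. At least 2 matches of this motif were present in 0.457% of all promoter windows.

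Cish rested on few reads. WT libraries held 2, 1 and 2 reads of Cish, and Cbl-/- libraries 7, 19 and 24. The libraries labelled Cbl-b-/- held 6, 2 and 2, and those labelled DKO 18, 12 and 18. All Cbl-/- and all DKO-labelled libraries were above all WT libraries, and the Cbl-/- libraries spread from 7 to 24 reads. In CPM the means were 0.0482 ± 0.023 in WT, 0.562 ± 0.29 in Cbl-/-, 0.110 ± 0.057 in the libraries labelled Cbl-b-/- and 0.440 ± 0.060 in those labelled DKO (SD, n = 3). The ratio of summed reads, scaled to depth, was 12.03 for Cbl-/- against WT (50 against 5 reads, 95% interval 4.82 to 38.6) and 9.64 for the libraries labelled DKO (48 against 5 reads, 3.86 to 31.0). For those labelled Cbl-b-/- it was 2.496 (10 against 5 reads, 0.777 to 9.31). These intervals cover counting error alone.

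The edgeR test called Cish higher than WT in Cbl-/- (log2 fold change 3.49, SE 0.80, adjusted p = 0.0021) and in the libraries labelled DKO (3.16, SE 0.80, adjusted p = 0.0015). Cish met the filter on low counts only through the groups where it was high, so the fit without the filter, over 15555 genes, is given beside it. There the values were 3.49 (adjusted p = 0.0026) in Cbl-/- and 3.14 (adjusted p = 0.0019) in the libraries labelled DKO. The value in the libraries labelled Cbl-b-/- was 1.23 (adjusted p = 0.85). Between the libraries labelled DKO and Cbl-/- Cish differed by -0.33 (95% interval -1.32 to 0.66, adjusted p = 0.64). The libraries labelled Cbl-b-/- were lower than Cbl-/- (log2 scale, -2.25, SE 0.64, adjusted p = 0.026), a call lost without Cbl-/- 2, Cbl-/- 3, Cbl-b-/- 2 or Cbl-b-/- 3 (-1.98, -2.08, -1.96 and -2.16). In the edgeR fit without the filter it was -2.27 (adjusted p = 0.038). Higher Cish in the libraries labelled DKO than in those labelled Cbl-b-/- (1.92, SE 0.64, adjusted p = 0.020) was lost without Cbl-b-/- 2 (1.63) or DKO 1 (1.82). Without the filter that difference was 1.92 (adjusted p = 0.030, edgeR). Because of how Cish met the filter, the counts of members below that include it are a description. A pair of annotated antisense genes overlap Cish. One of them, Gm17041, had 4 reads in WT, 7 in Cbl-/-, 5 in the libraries labelled Cbl-b-/- and 19 in those labelled DKO, and the other was not analysed here. Libraries were stranded, per the labels, but the strand setting of the counting is not stated, so reads of Cish and of its antisense genes cannot be told apart.

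Socs2 (ENSMUSG00000020027, chromosome 10, 95385362 to 95417180, minus strand) restrains growth hormone signalling and was too low to pass the filter. WT libraries held 12, 9 and 8 reads and Cbl-/- libraries 8, 6 and 10. Those labelled Cbl-b-/- held 5, 0 and 1, and those labelled DKO 21, 9 and 33. The Cbl-b-/- labels thus carried the lowest counts and the DKO labels the widest range, with DKO 2 at the level of WT. The depth-scaled ratio of summed reads to WT was 0.995 in Cbl-/- (0.555 to 1.77), 0.258 in the libraries labelled Cbl-b-/- (0.0877 to 0.633) and 2.18 in those labelled DKO (1.38 to 3.51), with 95% counting intervals that leave out the spread between libraries. In a fit without the filter, over 15555 genes, none of the 3 comparisons with WT passed (adjusted p = 0.99, 0.54 and 0.19, edgeR). The libraries labelled DKO were higher than those labelled Cbl-b-/- (log2 fold change 2.98, adjusted p = 0.0034, with 26.8% of all genes called in that fit). Between the libraries labelled Cbl-b-/- and Cbl-/- the value was -1.91 and did not pass (adjusted p = 0.17, with 5.79% called).

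**Figure D2:**
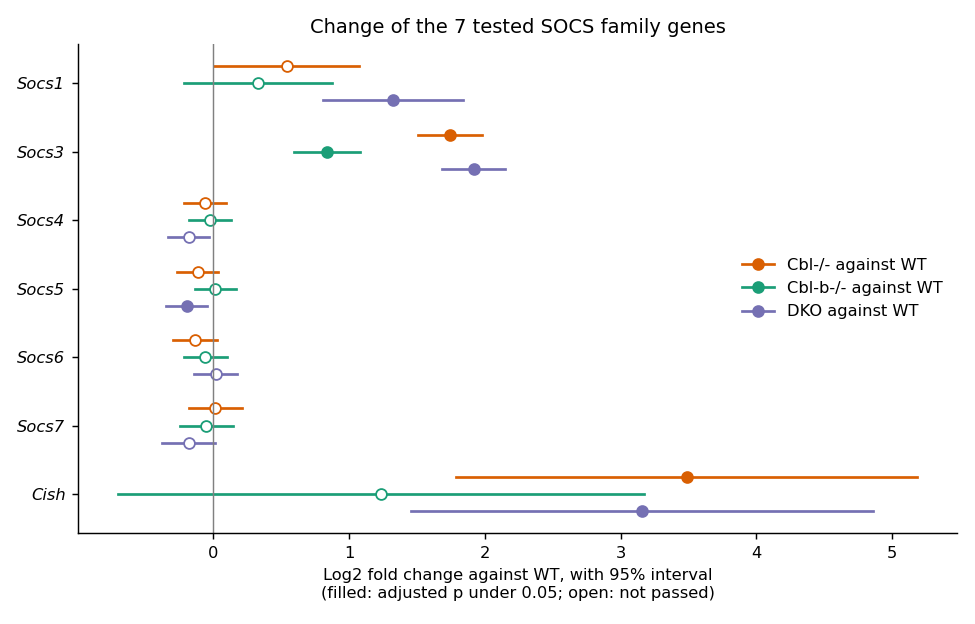
Log2 fold change of the 7 tested SOCS family genes in Cbl-/- and in the libraries labelled Cbl-b-/- and DKO, each against WT, with the 95% interval of the edgeR fit as a line. Filled points passed an adjusted p of 0.05. Socs3 passed in all 3 comparisons, Cish in 2, Socs1 and Socs5 in 1, and Socs4, Socs6 and Socs7 in none.

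The other 4 members, Socs4 to Socs7, differed less between genotypes than Socs3. Socs4 (ENSMUSG00000048379, chromosome 14, 47276931 to 47296102, plus strand) and Socs5 (ENSMUSG00000037104, chromosome 17, 87107679 to 87137839, plus strand) are known for promoting loss of the receptor of epidermal growth factor. Socs4 had 53.2, 54.4 and 56.6 CPM in WT, 54.0, 52.4 and 50.9 in Cbl-/-, 55.2, 51.6 and 54.5 in the libraries labelled Cbl-b-/- and 48.1, 42.7 and 53.5 in those labelled DKO. DKO 3 lay within the WT range and its partners below it. The log2 fold change in the libraries labelled DKO was -0.18 (95% interval -0.34 to -0.03, adjusted p = 0.058), and without DKO 3 it was -0.27 and passed (adjusted p = 0.0015). It also passed with total counts for scaling (-0.26, adjusted p = 0.010) and with the filter of 5 CPM in 3 libraries (-0.19, adjusted p = 0.043).

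Socs5 had 50.7, 49.7 and 49.3 CPM in WT and 47.9, 43.7 and 46.5 in Cbl-/-. The libraries labelled Cbl-b-/- had 47.7, 51.6 and 52.1 CPM, and those labelled DKO 40.4, 41.8 and 48.3. WT and DKO labels did not overlap, though DKO 3 came within about 1 CPM of WT. Socs5 fell against WT in the libraries labelled DKO (log2 scale, -0.20, SE 0.07, adjusted p = 0.038). This call was lost without WT 1, WT 2, WT 3, Cbl-/- 3, DKO 1 or DKO 2 (-0.19, -0.20, -0.21, -0.20, -0.15 and -0.17). It was also lower there than in the libraries labelled Cbl-b-/- (-0.21, SE 0.07, adjusted p = 0.030), a call lost without Cbl-b-/- 2, Cbl-b-/- 3, DKO 1 or DKO 2 (-0.20, -0.19, -0.16 and -0.18).

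Socs6 (ENSMUSG00000056153, chromosome 18, 88665224 to 88927481, minus strand) and Socs7 (ENSMUSG00000038485, chromosome 11, 97362551 to 97398542, plus strand) have been tied to insulin receptor signalling, and Socs6 also to the receptor KIT. Socs6 had 46.3, 44.6 and 43.7 CPM in WT, 41.1, 41.6 and 39.7 in Cbl-/-, 43.1, 42.4 and 43.7 in the libraries labelled Cbl-b-/- and 43.8, 40.7 and 51.6 in those labelled DKO. All Cbl-/- libraries were below all WT libraries, but the log2 fold change of -0.14 did not pass (95% interval -0.30 to 0.02, adjusted p = 0.32). In a fit of only Cbl-/- and WT it was -0.14 and passed (adjusted p = 0.043). Between the libraries labelled DKO and Cbl-/- the value was 0.15 (adjusted p = 0.14), and without DKO 2 it was 0.23 and passed (adjusted p = 0.027). DKO 3 was the highest of the 12 libraries for Socs6, and without it the log2 fold change against WT turned from 0.02 to -0.09, neither of which passed.

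Socs7 had 25.5, 27.8 and 30.9 CPM in WT, 27.6, 27.0 and 30.1 in Cbl-/-, 27.4, 26.8 and 26.8 in the libraries labelled Cbl-b-/- and 28.1, 24.1 and 21.8 in those labelled DKO. The groups overlapped in all pairs. Its log2 fold change in the libraries labelled DKO was -0.18 (95% interval -0.38 to 0.01, adjusted p = 0.14), and without DKO 1 it was -0.29 and passed (adjusted p = 0.024). For these 4 genes, the 95% intervals against WT in Cbl-/- and in the libraries labelled Cbl-b-/- all lay between -0.30 and 0.21 on the log2 scale.

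Counted over the 7 tested members, 2 rose in Cbl-/- and 0 fell, where 9.87% of all 12671 genes were called (5.68% higher, 4.19% lower). In the libraries labelled Cbl-b-/-, 1 rose, Socs3, where 0.489% of all genes were called (0.395% higher, 0.0947% lower). In those labelled DKO, 3 rose and 1 fell, where 35.4% of all genes were called (19.1% higher, 16.3% lower), so that calls are common in this comparison. The libraries labelled DKO differed from Cbl-/- in 1 member (29.6% of all genes, 16% higher and 13.6% lower) and from those labelled Cbl-b-/- in 4 members, 3 higher and 1 lower (33.2%, of which 17.7% higher and 15.6% lower). Between the libraries labelled Cbl-b-/- and Cbl-/-, 2 members were lower (7.37%, with 3.25% higher and 4.12% lower). The departure from additivity was called in 1 (15.7%, with 8.39% higher and 7.28% lower). The median log2 fold change of the 7 members was 0.01 in Cbl-/-, 0.01 in the libraries labelled Cbl-b-/- and 0.02 in those labelled DKO, beside -0.01, 0.00060 and -0.0029 over all genes, since Socs4 to Socs7 make up the middle of the list. Without DKO 3 the count in the libraries labelled DKO against WT was 5 and against Cbl-/- it was 4. The number of all genes called also moved with the library left out. It ran from 3355 to 4797 against WT (4485 with all libraries) and from 2855 to 4332 against Cbl-/- (3747 with all libraries).

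Set on a scale of CPM per kilobase of exon, the members spanned a wide range in WT. Socs4 (7.96 ± 0.25) and Socs5 (7.78 ± 0.11) were highest and did not differ beyond their spread (SD, n = 3). Socs6 (3.95 ± 0.12) and Socs7 (3.86 ± 0.37) followed, again within their spread. Socs3 (1.93 ± 0.18) and Socs1 (0.466 ± 0.056) came next, each clear of its neighbours, and Socs2 (0.0281 ± 0.0033) and Cish (0.00751 ± 0.0036) were far below. This order was not the same in every genotype. Socs3 reached 3.47 ± 0.19 CPM per kilobase in the libraries labelled Cbl-b-/-, 6.47 ± 0.24 in Cbl-/- and 7.32 ± 1.04 in those labelled DKO, where Socs4 (6.997 ± 0.79) and Socs5 (6.78 ± 0.66) lay within its spread. The order within the upper levels depends on which exons count as the length, since with the longest transcript Socs5 stood above Socs4 in WT (10.7) and Socs6 reached 7.43, while the ratio of Socs4 to Socs3 changed only from 4.13 to 3.64.

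**Figure D3:**
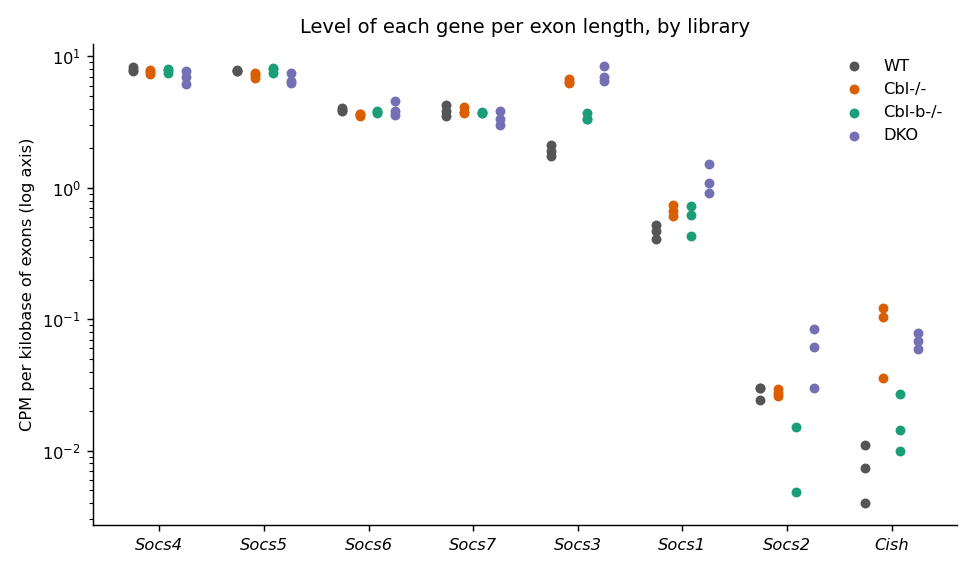
Level of each SOCS family gene per library as CPM per kilobase of merged exons on a log axis, with genes ordered by their mean in WT and genotypes by colour. The library labelled Cbl-b-/- 2 had 0 reads of Socs2 and is not drawn there. Socs3 moves from 1.93 in WT to 6.47 in Cbl-/- and to 7.32 in the libraries labelled DKO, beside Socs4 and Socs5.

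Genes upstream of the SOCS family were counted against the same backgrounds, 9.87% of all genes called in Cbl-/-, 0.489% in the libraries labelled Cbl-b-/- and 35.4% in those labelled DKO. Of 11 JAK kinases and STAT factors, 0 passed the edgeR test in Cbl-/- (1 at an unadjusted p under 0.05, median log2 fold change 0.05), and 0 in the libraries labelled Cbl-b-/- (1 unadjusted). In the libraries labelled DKO 3 rose and 1 fell, a share close to that of all genes. Among them Stat2, a factor of type I interferon signalling, rose by 0.81 on the log2 scale and the kinase gene Jak3 by 0.59, while Stat5b changed by -0.25. Without DKO 3 the split was 6 and 1. Of 24 tested receptors that use JAK kinases, 2 rose and 2 fell in Cbl-/- (3 and 6 without DKO 3). Il2rg, the chain shared by receptors of the interleukin 2 family, rose from 76.4 ± 0.62 CPM in WT to 104 ± 3.3 in Cbl-/- and 204 ± 6.3 in the libraries labelled DKO. There 6 receptors rose and 10 fell, among them Csf2rb (0.48), Il7r (0.81) and the interleukin 6 receptor gene Il6ra (-0.44). That split was 5 and 7 without DKO 3, and 5 and 12 with total counts for scaling. Of 6 tested cytokines, 2 rose in the libraries labelled DKO, Il15 (0.36) and Il7 (0.91). Without WT 1 the count was 0, and without WT 3 or DKO 3 it was 1. In the libraries labelled Cbl-b-/- no gene of these last 2 lists passed the edgeR test, with 3 receptors and 0 cytokines at an unadjusted p under 0.05.

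Among 13 other inhibitors of the same pathway, 1 rose in Cbl-/-, the adaptor gene Sla (0.36), and without DKO 3 it was 3 higher and 1 lower. In the libraries labelled DKO 4 rose and 2 fell, led by Usp18, which removes the ubiquitin-like ISG15 and dampens the interferon receptor. Usp18 rose from 13.1 ± 3.0 to 45.2 ± 4.0 CPM (log2 fold change 1.80), and Sh2b3, an adaptor that restrains JAK2, changed by -0.64. Of 9 genes listed with the SOCS box ligase 0 passed the edgeR test in Cbl-/- (1 at an unadjusted p under 0.05). In the libraries labelled DKO 4 of them rose, Ube2f (0.51), Cul2 (0.40), Rbx1 (0.21) and Elob (0.20). Of these only Elob, for elongin B, is among the parts of the ligase named earlier. With total counts for scaling 2 of the 9 rose and 1 fell, and Rbx1 and Elob lost their calls. Of 16 tested SOCS box proteins outside the family 0 passed the edgeR test in Cbl-/- (2 unadjusted), and in the libraries labelled DKO 2 rose (Wsb2 and Spsb4) and 1 fell (Asb10). With total counts 2 rose and 3 fell, and without DKO 3 it was 3 and 2.

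Genes known to respond to STAT factors or to interferon were counted next, in lists that leave the SOCS genes out. Of all genes 5.68% were called higher and 4.19% lower in Cbl-/-, and 19.1% and 16.3% in the libraries labelled DKO. In those labelled Cbl-b-/- 0.489% were called. Of 14 genes that respond to STAT3, the factor best known for inducing Socs3, 5 rose and 1 fell in Cbl-/-, with a median log2 fold change of 0.26 beside -0.01 over all genes. Without WT 1, WT 2, Cbl-/- 1 or Cbl-/- 3 the number higher was 3. Pim1, a survival kinase, rose from 30.5 ± 1.3 to 47.3 ± 3.7 CPM, and Il1rn, the interleukin 1 receptor antagonist, rose from 8.88 ± 0.32 to 14.9 ± 0.98. Cebpb rose by 0.53, and the repressor gene Bcl6 changed by -0.29. In the libraries labelled DKO 8 rose and 3 fell, Il1rn reaching 36.2 ± 2.9 CPM, and 0 passed the edgeR test in those labelled Cbl-b-/- (4 at an unadjusted p under 0.05). Without DKO 3 the split in the libraries labelled DKO was 9 and 1. Of 11 genes that respond to STAT5, 2 rose and 3 fell in Cbl-/-, and 2 rose and 5 fell in the libraries labelled DKO, where the cyclin gene Ccnd2 changed by -0.83. Without DKO 3 the split in Cbl-/- was 3 and 5, and without WT 2, Cbl-/- 1 or Cbl-/- 2 the number lower was 1. Pim1 and Bcl6 stand in both lists.

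Interferon genes set the libraries labelled DKO apart from Cbl-/-. Of 19 tested interferon-responsive genes, 18 rose and 1 fell in the libraries labelled DKO, with a median log2 fold change of 1.15, where 19.1% of all genes were called higher. Gbp2 rose from 6.40 ± 0.65 to 28.7 ± 3.7 CPM and Cxcl10 from 11.5 ± 0.53 to 59.0 ± 14. The 1 that fell was Irf8 (-0.29), named after its value was seen. The split was the same without DKO 3. Summed dendritic cell markers, 7 of 8 in the table and led by Bst2, which interferon also induces, were at 62.0 to 65.0 CPM in WT and 106 to 127 in the libraries labelled DKO, and their part in this list was not tested. In Cbl-/- 3 rose, Cxcl10 (1.43), Gbp2 (0.79) and Gbp3 (0.56), and in the libraries labelled Cbl-b-/- 1 rose, Cxcl10 (0.90), a call lost without WT 1, WT 2, WT 3, Cbl-b-/- 2, Cbl-b-/- 3 or DKO 2. Against Cbl-/- the libraries labelled DKO had 18 genes of this list higher and 1 lower, where 16% of all genes were called higher and 13.6% lower.

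Of 9 tested genes that respond to STAT6, 3 rose in Cbl-/-, Cdh1 (1.57), Mrc1 (0.62) and Clec10a (0.59), and without WT 1 or Cbl-/- 3 the count was 1. The libraries labelled DKO had 5 higher and 1 lower, and 3 higher without WT 2. For this list and the next, the shares over all genes were 5.68% higher and 4.19% lower in Cbl-/-. In the libraries labelled DKO they were 19.1% and 16.3%. The chitinase-like gene Chil3 went from 0.281 ± 0.058 CPM in WT to 15.03 ± 3.6 in the libraries labelled DKO, and the mannose receptor gene Mrc1 from 55.8 ± 14 to 15.2 ± 1.0. A read corresponds to 0.0238 to 0.0357 CPM in WT, so Chil3 rested on few reads in WT. Of 9 tested kinases and adaptors that SOCS proteins are known to bind, 1 rose and 1 fell in Cbl-/-, Kit (1.25) and Tirap (-0.33). The call of Kit was lost without any 1 WT library, any 1 Cbl-/- library or DKO 1, and that of Tirap without WT 1 or Cbl-/- 1. Kit also rested on few reads, at 0.308 to 0.500 CPM in WT. The DKO label had 1 higher and 5 lower. Irs2, an adaptor of the insulin receptor, fell from 14.0 ± 1.2 to 3.93 ± 0.82 CPM, and Csf1r, the CSF-1 receptor, from 2207 ± 143 to 1709 ± 91.

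**Figure D4:**
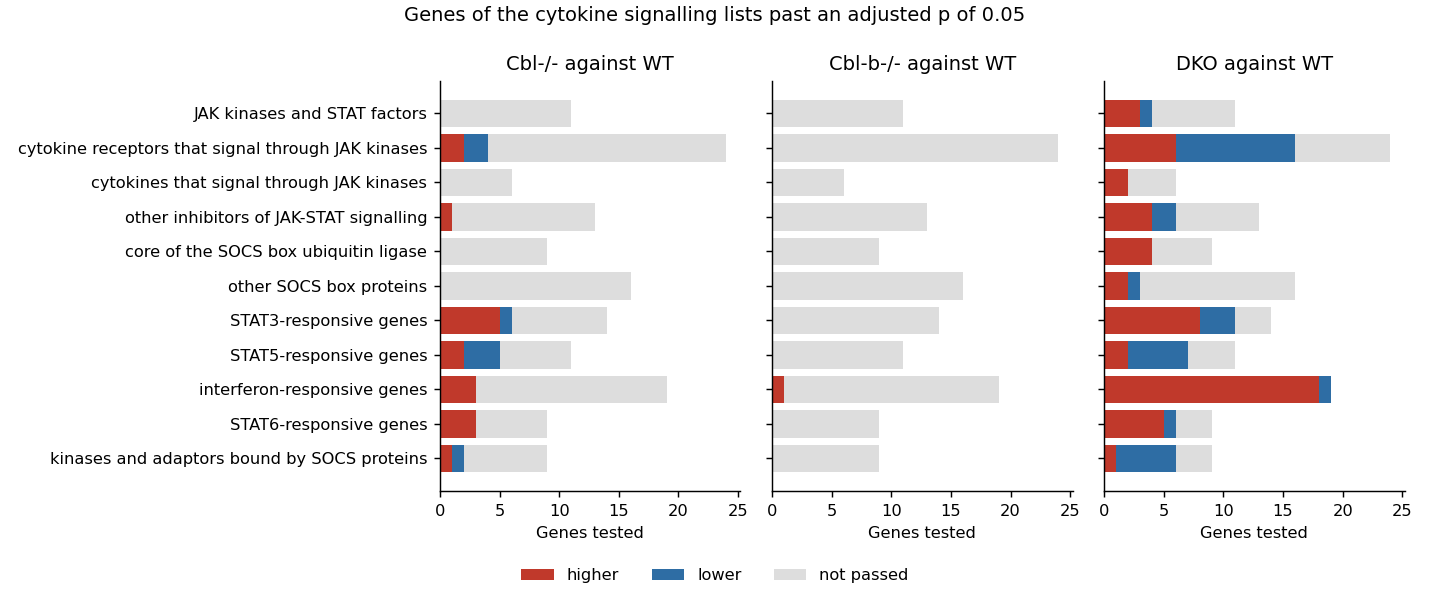
Number of genes of each cytokine signalling list that passed an adjusted p of 0.05 with a higher or lower level than WT, and the number that did not, in Cbl-/- and in the libraries labelled Cbl-b-/- and DKO. The bar of each list is as long as its number of tested genes. The interferon list has 18 higher and 1 lower gene of 19 in the libraries labelled DKO and 3 higher genes in Cbl-/-.

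Genes with the pattern nearest to each responding member were sought among 10115 genes, by the root mean square difference of log2 CPM over the 12 libraries after centring each gene on its mean. Nearest to Socs3 were Tarm1 (0.216), Bst1 (0.223) and Gpr84 (0.258), where Socs3 itself varied by 0.771 around its mean and by 0.13 within genotypes. Tarm1 encodes an activating receptor of myeloid cells, Bst1 the surface enzyme CD157 and Gpr84 a receptor for medium-chain fatty acids. Nearest to Socs1 were Trp53i11 (0.186), Glipr2 (0.205) and Gas7 (0.206), all within its spread inside genotypes (0.28). Those nearest to Cish, Igsf11 (0.510), Bst1 (0.521) and Src (0.543), lay about as far from it as Cish spread inside genotypes (0.513). Nearest to Socs5 were Lsm14a (0.0383), Prkd3 (0.0498) and Yipf6 (0.0503). The likeness is a description over 12 libraries that share their genotypes.

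**Figure D5:**
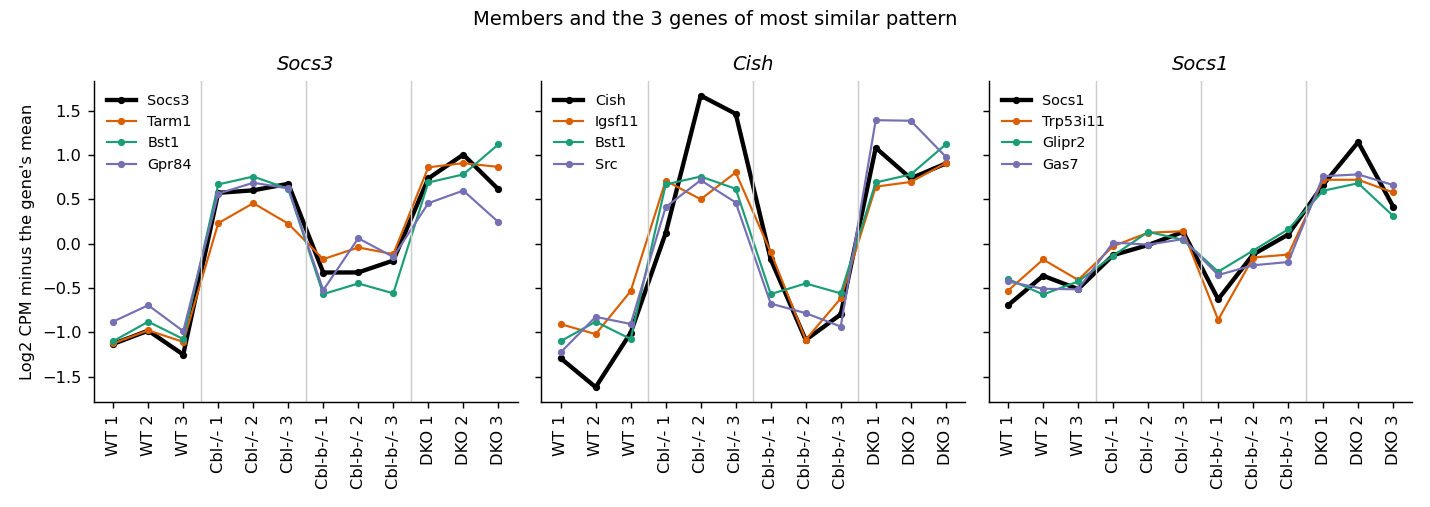
Log2 CPM minus the gene's own mean in each of the 12 libraries, for Socs3, Cish and Socs1 (black) and the 3 genes nearest to each (colours), with vertical lines between genotypes. Around Socs3, Tarm1, Bst1 and Gpr84 are lowest in the 3 WT libraries, while the neighbours of Cish swing less than Cish itself.

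Genes within 200 kb of each member were counted to see whether whole stretches moved. Of all genes, 9.87% were called in Cbl-/- and 35.4% in the libraries labelled DKO. No neighbour of any member passed in the libraries labelled Cbl-b-/-. Around Socs3, 1 of 10 tested neighbours rose in Cbl-/-, and in the libraries labelled DKO 0 rose and 3 fell. Around Cish, 0 of 3 neighbours passed in Cbl-/-, and in the libraries labelled DKO 1 rose and 2 fell. Around Socs1, 1 of 3 fell in Cbl-/-, and 1 rose and 1 fell in the libraries labelled DKO. Around Socs4, 2 of 6 rose in Cbl-/-, and 3 rose and 1 fell in the libraries labelled DKO. Around Socs7, 1 of 5 rose and 1 fell in Cbl-/-, and 2 rose in the libraries labelled DKO. Around Socs2 (4 tested), Socs5 (6) and Socs6 (1), 0 passed in Cbl-/-. In the libraries labelled DKO 1 rose and 1 fell around Socs2, 1 rose around Socs5 and 0 passed around Socs6.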

How the data were processed

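RNA was sequenced from 12 libraries, 3 per genotype. Library preparation used a stranded TruSeq mRNA kit, and RNA was pooled without saying of what, per the labels' protocols. The authors deposited raw counts, unscaled whole numbers of reads for each gene. The genome build was GRCm38.p5, per the submitters' processing notes, and neither aligner nor counter nor its strand setting is stated in the sources used here. Whether replicates were separate animals is not said, so p-values cover the spread of these libraries alone, possibly a technical one. No pair of libraries differed as little as sampling noise.

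One edgeR 4.0.16 model in R 4.3.3 held all 12 libraries (filterByExpr, TMM factors, robust quasi-likelihood test, Benjamini-Hochberg adjustment over 12671 genes, threshold 0.05), after 2884 genes with low counts were removed. CPM are the deposited counts scaled with TMM factors, and lengths are merged exons of GENCODE M21. The fit was tested on simulated counts. Named are the 8 members, Cbl, Cblb, up to 4 genes a list, those of lowest adjusted p (any gene of lists of 12 or fewer), and the 3 genes nearest in pattern to each called member. One further gene is not reported here. Members and lists were chosen with earlier results of these data known. The comparisons with WT share its 3 libraries. Alternatives were DESeq2 1.42.0, limma 3.58.1 (voom), other scalings and filters, a replicate block, 2-genotype fits and each library left out in turn.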

Additional observations from a re-analysis of the deposited data

Results flagged for a closer look

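Socs3 departed from additivity of the single knockouts on the log2 scale. The contrast of the libraries labelled DKO against the sum of both single changes was -0.66 (SE 0.15, adjusted p = 0.0067, edgeR), with 3 libraries per genotype. It tests a difference between the change in Cbl-/- (1.74) and the change from the libraries labelled Cbl-b-/- to those labelled DKO (1.08). Over all genes 15.7% passed this contrast.

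Socs2 moved in opposite directions against WT in 2 groups. All libraries labelled Cbl-b-/- were below all WT libraries (log2 fold change -1.93, fit without the filter on low counts), and all those labelled DKO were above them (1.06). The lowest of the latter, DKO 2 at 9 reads, was above the highest WT library by less than 1 read. Neither comparison with WT passed (adjusted p = 0.54 and 0.19). The fits with 1 library left out used the filter. Socs2 met it in 10 of them, but not without DKO 1 or DKO 3, which held most of its reads (21 and 33). Socs2 thus entered these fits only through the group where it was high, and their values are a description. The value in the libraries labelled Cbl-b-/- ran there from -3.56 (without Cbl-b-/- 1) to -1.32 (without Cbl-b-/- 2). The departure of Socs2 from additivity was 3.00 (adjusted p = 0.044, where 12.2% of all genes passed in that fit). In the same filtered fits this departure ran from 2.41 without Cbl-b-/- 2 to 4.65 without Cbl-b-/- 1.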

How the results depend on the processing

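Across 21 other settings, 975 of 1034 member values kept their direction and their side of the threshold, 31 lost a call, 14 gained one and 14 changed sign, while of 1172 values of other named genes 1117 kept both and 55 lost a call. Socs3 against WT in all 3 groups and Socs1 in the libraries labelled DKO passed in all settings where they were tested. The filter of 5 CPM in 3 libraries removes Cish and Socs1 by its construction, and gave 1 member in Cbl-/- against WT, 0 in DKO against Cbl-/-, 2 in DKO against Cbl-b-/- and 1 in Cbl-b-/- against Cbl-/-. With total counts for scaling 3 members passed in DKO against Cbl-/- (Socs1, Socs4 and Socs7), Socs4 passed against WT and against Cbl-b-/- (-0.25, adjusted p = 0.012), and Socs6 changed sign in DKO against WT (-0.055) and DKO against Cbl-b-/- (-0.016). That scaling shifted the median of all genes by up to -0.11 and turned the split of genes called higher and lower in DKO against WT from 2423 and 2062 to 1773 and 2873. Cbl-b-/- against Cbl-/- gave 1 member with limma voom, where Cish lost its call (adjusted p = 0.058). It also gave 1 with only the genotypes compared, a fit in which Cish was not tested. The departure from additivity gave 2 with no filter or with DESeq2 (Socs2 and Socs3), as Socs2 was tested there and not in the main fit. In the fit of only the genotypes compared Socs5 in DKO lost its call against WT (adjusted p = 0.11) and against Cbl-b-/- (adjusted p = 0.12).

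With a library left out in turn the number of members called was 2 in Cbl-/- against WT, 1 in Cbl-b-/- against WT, 3 to 5 in DKO against WT, 0 to 4 in DKO against Cbl-/-, 2 to 5 in DKO against Cbl-b-/-, 1 to 2 in Cbl-b-/- against Cbl-/- and 1 to 2 for the departure. Counts for DKO against Cbl-b-/- and for the departure include Socs2 where it passed. Socs2 met the filter only with both DKO 1 and DKO 3 in the fit, so these counts are a description. Signs changed for values near 0: Socs2 (-0.11 to 0.045) and Socs7 (-0.052 to 0.086) in Cbl-/-, Socs4 (-0.049 to 0.0031), Socs5 (-0.0095 to 0.051) and Socs7 (-0.12 to 0.020) in Cbl-b-/-, and Socs6 in DKO against WT (-0.087 to 0.089) and against Cbl-b-/- (-0.027 to 0.15). Over all genes, 1251 were called in Cbl-/- against WT and 733 to 2206 with a library left out (2753 with only the genotypes compared), 62 in Cbl-b-/- against WT and 35 to 144 (145 with DESeq2), and 934 in Cbl-b-/- against Cbl-/- and 533 to 1903 (1712 with only the genotypes compared). In DKO against Cbl-b-/- 4211 fell to 2760 with only the genotypes compared, and ran from 3493 to 4543 with a library left out. That range was 3355 to 4797 in DKO against WT and 2855 to 4332 in DKO against Cbl-/-.

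The replicate numbers did not pair the libraries, as deviations of same-numbered libraries correlated by -0.054 to 0.052. With the number as a block, Cbl-b-/- against Cbl-/- gave 1 member in place of 2 (Cish, adjusted p = 0.053), and no other count of members moved past 1.5 times. The counts of the gene lists under total-count scaling and without each library were added after the data were seen. With a library left out, the interferon list gave 17 to 18 higher genes in DKO against WT and the STAT3 list 3 to 6 higher genes in Cbl-/-. Depth limits Cish and Socs2, where 3 reads correspond to 0.0714 to 0.138 CPM per library.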
